A study of Mus musculus with 24 samples.

Results

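The 10 genes described are protein-coding genes of the mouse mitochondrial genome: mt-Nd1, mt-Nd2, mt-Nd4, mt-Nd5, mt-Nd6, mt-Co1, mt-Co2, mt-Co3, mt-Cytb and mt-Atp6. They were chosen by name, as protein-coding genes of chromosome M with counts in most libraries, from a count table of 43430 genes that lists 37 genes of chromosome M, 13 of them protein-coding. The data go against that rule for mt-Co2, mt-Co3 and mt-Atp6, which had a count in 2, 2 and 3 of 24 libraries, and for mt-Nd3, which had counts in 24 of 24 libraries (5 to 23) and is not a member. Their levels were measured by RNA-seq of whole cerebellum from 24 mice of about 7 weeks. Each group held 6 mice, of which 3 were males and 3 females. The knockout mice (cKO) had dysfunctional mitochondrial complex I in the brain. The second group had the same knockout together with NDI1 (cKO+NDI1), a single-protein NADH dehydrogenase of yeast that regenerates NAD+ without pumping protons. The NDI1 control carried NDI1 without the knockout, and the Cre control is the group without knockout or NDI1. The labels do not give the deleted gene, the driver of Cre or the cells it acts in, so each value is an average over all cell types of the cerebellum, in which fewer cells of a type and less RNA per cell cannot be told apart.

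Mitochondrial DNA is transcribed from both strands into long RNAs that run through nearly the whole genome, and the mRNAs are cut out at the tRNAs that lie between them. Their levels then diverge through differences in stability and polyadenylation, so genes of the same primary transcript can differ in level. The 13 mRNAs encode core subunits of complex I (the mt-Nd genes), complex III (mt-Cytb), complex IV (mt-Co1 to mt-Co3) and ATP synthase (mt-Atp6 and mt-Atp8), and all other subunits, as well as the proteins that copy and transcribe the mitochondrial genome, are made from nuclear genes. Neurons, and Purkinje cells in particular, depend heavily on this system.

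Of the 10 members, 7 had over 4000 counts in every library and 3 had almost none. The library totals ran from 7584374 to 19785264 counts. mt-Co2, mt-Co3 and mt-Atp6 had 2, 3 and 3 counts over all 24 libraries, with at most 2 in any library. A count of 0 allows up to 3 counts per library, which is 0.152 to 0.396 CPM (counts per 1e6 counts) at these depths, counting error only. Among the other protein-coding genes, mt-Nd4l and mt-Atp8 were at 0 in every library and mt-Nd3 had 5 to 23 counts. These genes encode subunits that respiring cells need, so the listed zeros cannot be read as levels of the mRNAs, and none of the 3 members was tested.

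Each of the 3 members with almost no counts has a near-perfect copy in the nuclear genome. A block of 7 unprocessed pseudogenes lies on the minus strand of chromosome 1 (GRCm38, 24611535 to 24616197), and its sequence is shared base for base with mt-Co2 over bases 1 to 681 of 684, with mt-Co3 over bases 1 to 783 of 784 and with mt-Atp6 over bases 1 to 678 of 681. The same block holds bases 1 to 876 of the 1378 of mt-Nd4 and the last 479 of the 1545 bases of mt-Co1. The opening of mt-Co2 and both edges at which the shared run stops inside a well-counted member follow, 5′ to 3′, from the GENCODE M21 transcripts. Capitals mark the unbroken run shared by the mitochondrial gene and its copy. mt-Co2 and its copy Gm28661 read the same over their first 60 bases.
mt-Co2 bases 1 to 60: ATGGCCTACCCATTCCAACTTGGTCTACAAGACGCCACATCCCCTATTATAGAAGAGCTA
Gm28661 bases 1 to 60: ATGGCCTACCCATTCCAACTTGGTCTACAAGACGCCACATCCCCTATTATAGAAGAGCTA
In mt-Co1 the shared run with Gm29216 begins at base 1067. The annotated copy, 492 bases long, starts shortly before the run, and its bases there match mt-Co1 only in part. Stretches of 30 bases between bases 1 and 1545 of mt-Co1 also occur in Gm13340, a pseudogene on chromosome 2.
mt-Co1 bases 1037 to 1096: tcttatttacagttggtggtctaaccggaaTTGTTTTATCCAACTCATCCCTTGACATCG
Gm29216 bases 1 to 43: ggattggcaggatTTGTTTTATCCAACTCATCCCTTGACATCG
In mt-Nd4 the shared run with Gm28439 ends at base 876, where the annotated copy stops.
mt-Nd4 bases 847 to 906: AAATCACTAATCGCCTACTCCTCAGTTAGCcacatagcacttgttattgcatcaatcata
Gm28439 bases 847 to 876: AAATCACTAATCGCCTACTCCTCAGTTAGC

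The 7 copies had 0 to 10 counts per library each and 314 counts in total, so the missing counts of the mitochondrial genes were not listed under the copies. Of all 100-base stretches, 99.5% of those of mt-Co2, 99.5% of those of mt-Atp6 and 99.9% of those of mt-Co3 also occurred in a nuclear transcript, against 60.8% for mt-Nd4, 30.8% for mt-Co1, 3.19% for mt-Nd2 and 0 for mt-Nd1, mt-Nd5, mt-Nd6 and mt-Cytb. Shorter stretches were shared more widely. At 50 bases the shares were 62.2% for mt-Nd4, 51.1% for mt-Co1, 8.19% for mt-Nd2, 7.61% for mt-Nd5 and 0 for mt-Nd1, mt-Nd6 and mt-Cytb. At 30 bases they were 64.8% for mt-Co1, 17.5% for mt-Nd5, 14.1% for mt-Nd2, 8.37% for mt-Nd6 and 7.35% for mt-Cytb. mt-Nd4 was at 62.8% and mt-Nd1 at 0 there. mt-Atp8 was likewise at 0 in every library although no 100-base stretch of it occurred in an annotated nuclear transcript. mt-Atp8 lies between mt-Co2 and mt-Atp6, and the stretch of chromosome 1 between their copies has no annotated gene. How reads that match 2 places were counted is not given in the sources used here, so the part of the copies in the low counts was not tested.

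**Figure D1:**
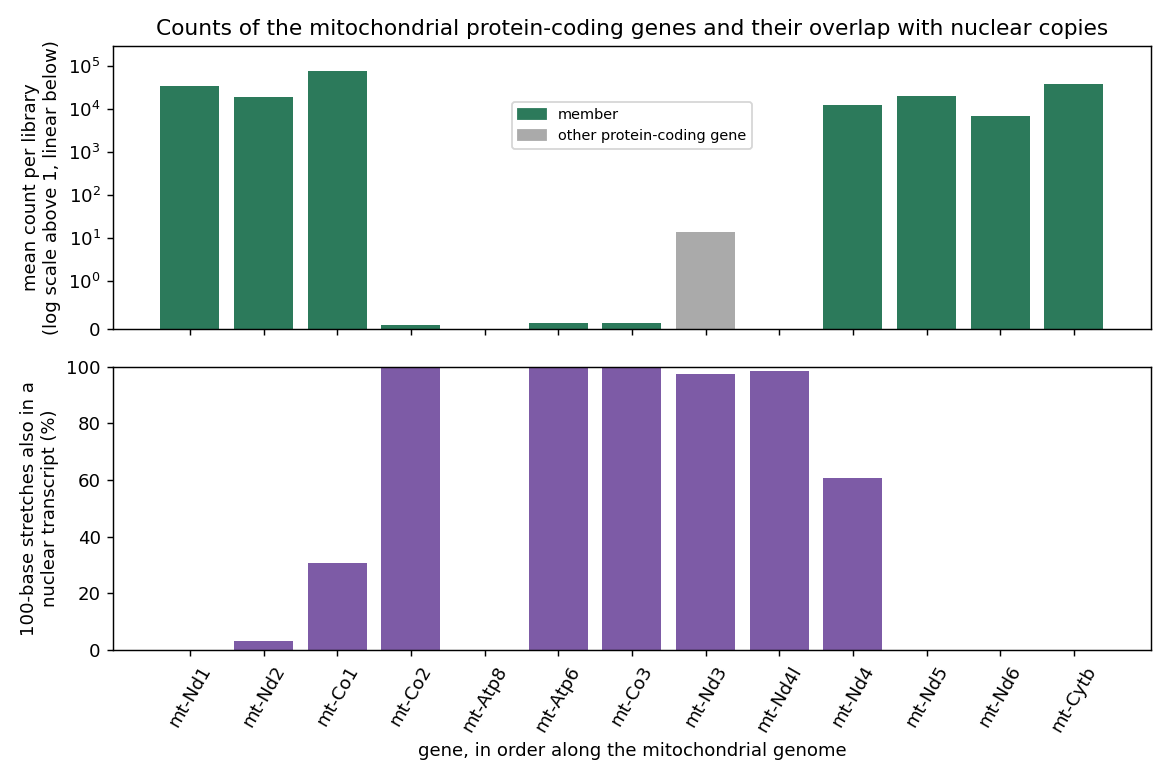
Mean count per library (upper panel, log scale above 1) and the percentage of 100-base stretches that also occur in an annotated nuclear transcript (lower panel) for the 13 protein-coding genes, in their order along the mitochondrial genome. The bars of mt-Co2, mt-Atp6 and mt-Co3 stay under 1 count and reach 99.5, 99.5 and 99.9% below, whereas mt-Atp8 and mt-Nd4l are at 0 counts with 0 and 98.5%.

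Per kilobase of gene, mt-Co1 (ENSMUSG00000064351, chromosome M, 5328 to 6872, plus strand), the catalytic core of complex IV, was the highest of the 7 counted members, at 3636 ± 1143 CPM per kb (SD over 24 libraries, all groups). mt-Nd1 (chromosome M, 2751 to 3707), a membrane subunit of complex I near the ubiquinone site, followed at 2590 ± 505 CPM per kb. mt-Cytb (14145 to 15288), the only mitochondrially encoded subunit of complex III, stood at 2469 ± 574 CPM per kb. The order of mt-Nd1 over mt-Cytb held in 17 of 24 libraries, so these neighbours do not separate beyond the spread. Below them came mt-Nd2 (3914 to 4951) at 1344 ± 277, mt-Nd6 (13552 to 14070) at 936 ± 232, mt-Nd5 (11742 to 13565) at 807 ± 231 and mt-Nd4 (10167 to 11544) at 636 ± 164 CPM per kb. Each of these neighbours kept its order in 24 of 24 libraries.

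The place of mt-Nd4 depends on the length used. When only the positions whose 100-base stretch occurs in no nuclear transcript were counted as length, mt-Nd4 came to 1745 ± 450 and mt-Co1 to 5618 ± 1765 CPM per kb, and mt-Nd4 stood above mt-Nd2, at 1535 ± 317 CPM per kb, in 22 of 24 libraries. This choice of length was made after seeing the data and does not touch comparisons between groups. mt-Nd6 is the only member on the minus strand, and the kit does not mark strand, so its counts cannot be told apart from RNA of the opposite strand. In human cells the ND6 mRNA is known to lack a poly(A) tail, and these libraries were selected for poly(A).

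The members together took 1.75% ± 0.317 of all counts in cKO, 1.66% ± 0.357 in cKO+NDI1, 1.45% ± 0.381 in the NDI1 control and 1.20% ± 0.210 in the Cre control (SD, n = 6 each). The ranges were 1.38 to 2.26% in cKO, 1.21 to 1.98% in cKO+NDI1, 1.11 to 2.13% in the NDI1 control and 0.938 to 1.54% in the Cre control, so every pair of groups overlapped. Females F1 of cKO and F2 of the NDI1 control had the highest shares, 2.26 and 2.13%. The 7 counted members moved together from mouse to mouse: after the means of group and sex were taken out of log2 CPM, the 21 pairs of members had correlations of 0.906 to 0.989 over 24 libraries, median 0.958. The points share their library and its total, and the values describe that common movement only.

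In cKO against the Cre control, mt-Co1 rose and was the only member that passed edgeR's quasi-likelihood test. The libraries had 6794, 7265 and 5567 CPM in male and 9728, 5933 and 7896 CPM in female cKO mice, against 3965, 3661 and 3900 CPM in male and 4830, 2873 and 4178 CPM in female Cre controls. The lowest cKO library lay above the highest Cre control library. The share of all genes whose libraries separate in this way was not counted, so the separation is a description only. In this comparison 18.5% of all genes had an unadjusted p under 0.05 by edgeR's quasi-likelihood test. The group means were 7197 ± 1504 CPM in cKO and 3901 ± 641 CPM in the Cre control (SD, n = 6 each), a log2 fold change of 0.88 ± 0.17 (SE) with an adjusted p of 0.00358 by edgeR's quasi-likelihood test over 15300 genes. Of all tested genes, 4.87% were called in this comparison and 3.06% were called higher, and 117 of 15300 genes had a larger log2 fold change than mt-Co1. With 1 of 7 tested members called, the share of members called cannot be set apart from that background.

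The complex I members did not pass edgeR's quasi-likelihood test in this comparison, although mt-Nd1 did so by DESeq2 (adjusted p 0.0343). mt-Nd1 had 2543, 2692 and 2164 CPM in male and 3186, 2381 and 2883 CPM in female cKO mice, against 1931, 1846 and 2004 CPM in male and 2533, 1546 and 2066 CPM in female Cre controls. In 4 of 6 cKO libraries it was above every Cre control library, and its log2 fold change was 0.41 ± 0.13 with an adjusted p of 0.0623 by edgeR. Of 15 other settings 3 called it: DESeq2, library size alone (adjusted p 0.0448) and 1 surrogate variable (0.0209), the last added after seeing the data. Over the 15 settings its adjusted p ran up to 0.250. Of 24 fits that left out 1 library, 3 called it. mt-Nd5, a proton-pumping subunit, and mt-Nd6, a small membrane subunit, had log2 fold changes of 0.37 ± 0.20 and 0.38 ± 0.18 with adjusted p of 0.352 and 0.248. mt-Nd4, another proton-pumping subunit, averaged 922 ± 201 CPM in cKO and 812 ± 202 CPM in the Cre control, log2 fold change 0.18 ± 0.19. mt-Nd2, also in the pump, averaged 1350 ± 222 CPM in cKO and 1296 ± 274 CPM in the Cre control, log2 fold change 0.06 ± 0.15 with a 95% interval of -0.25 to 0.37. mt-Cytb averaged 3173 ± 632 CPM in cKO and 2380 ± 425 CPM in the Cre control, log2 fold change 0.41 ± 0.16 and adjusted p 0.145.

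**Figure D2:**
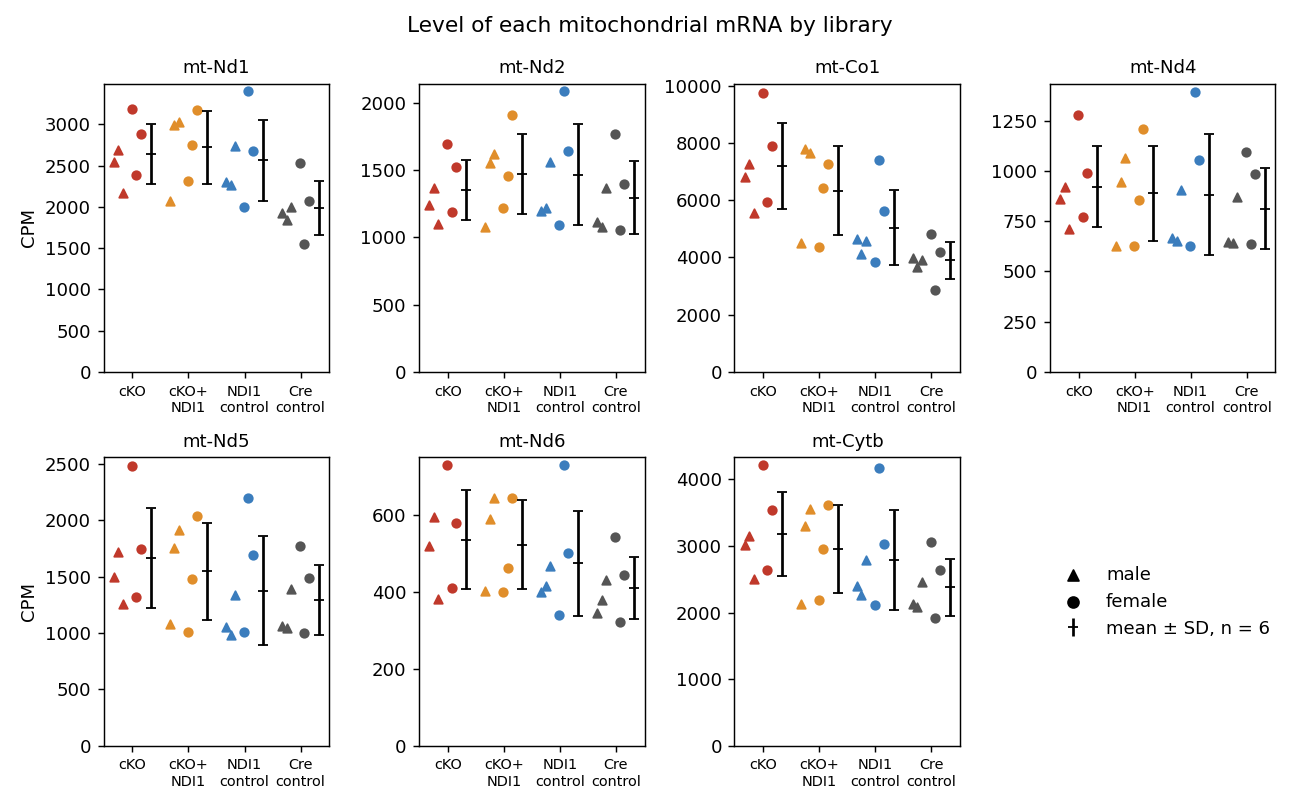
Level of each of the 7 counted members in CPM (vertical axes, from 0) by group (cKO, cKO+NDI1, NDI1 control, Cre control), with males as triangles, females as circles and the mean ± SD of 6 mice beside them. mt-Co1 is the only panel in which all cKO points lie above all Cre control points. The share of all genes that separate so was not counted. The other panels overlap, and single females of cKO and of the NDI1 control are the highest points in most panels.

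The share that each member took of the summed member counts gives its level relative to the other members of the same library. In cKO, mt-Co1 held 40.5 to 41.7% of the member counts, mean 41.1% ± 0.43, against 30.8 to 35.4%, mean 32.4% ± 1.92, in the Cre control. The 6 cKO libraries differed from each other by about 1 percentage point, although their summed level differed widely. mt-Nd2 held 7.25 to 8.12% in cKO and 9.99 to 11.3% in the Cre control, mt-Nd4 5.16 to 5.48% in cKO and 5.77 to 7.47% in the Cre control, and mt-Cytb 17.8 to 18.5% in cKO and 18.98 to 20.5% in the Cre control. The shares of mt-Nd1, mt-Nd5 and mt-Nd6 overlapped between these groups. Shares sum to a fixed total, so a larger share of mt-Co1 lowers the others. No test was made on them, and as they are defined within the members alone, no background over all genes stands beside them.

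With NDI1 the mean share of mt-Co1 lay between those of cKO and the Cre control. In cKO+NDI1, mt-Co1 held 36.0 to 41.2% of the member counts, mean 38.4% ± 1.94, again above every Cre control library, and the NDI1 control held 31.9 to 36.8%, mean 34.6% ± 1.56. mt-Cytb separated the knockout groups from the others: its share was 17.8 to 18.5% in cKO and 17.4 to 18.2% in cKO+NDI1, against 18.7 to 19.5% in the NDI1 control and 18.98 to 20.5% in the Cre control. mt-Nd2 ran in the order of the groups, with means of 7.76% in cKO, 9.02% in cKO+NDI1, 10.04% in the NDI1 control and 10.7% in the Cre control. All cKO+NDI1 libraries were above all cKO libraries for the share of this member, at 8.20 to 10.02% against 7.25 to 8.12%. The CPM of mt-Nd2 overlapped between these groups. Its log2 fold change was 0.13 ± 0.15, with an adjusted p of 0.874 by edgeR's quasi-likelihood test. The separation is thus one of untested shares, not of its level.

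**Figure D3:**
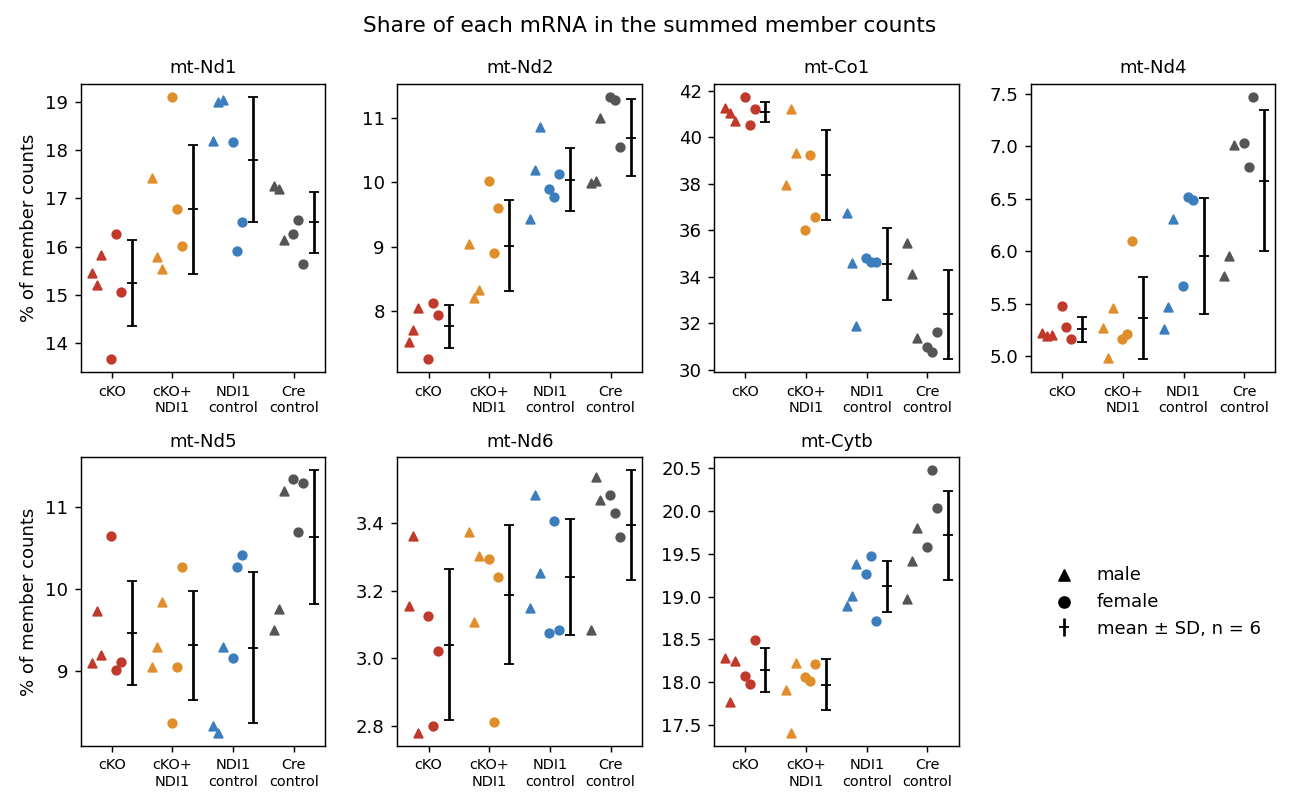
Share of each counted member in the summed counts of the 10 members (%, vertical axes do not start at 0), by group and sex, with the mean ± SD of 6 mice. mt-Co1 is at 40.5 to 41.7% in cKO and 30.8 to 35.4% in the Cre control, and mt-Nd2, mt-Nd4 and mt-Cytb lie lower in cKO than in the Cre control.

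In cKO+NDI1 against the Cre control, mt-Co1 was again the only member that passed edgeR's quasi-likelihood test. It had 4518, 7800 and 7653 CPM in male and 4364, 6430 and 7254 CPM in female cKO+NDI1 mice, against 3965, 3661 and 3900 CPM in male and 4830, 2873 and 4178 CPM in female Cre controls. The groups overlapped, with M1 and F1 of cKO+NDI1 inside the range of the Cre control. The log2 fold change was 0.70 ± 0.17 (SE) with an adjusted p of 0.0392 by edgeR's quasi-likelihood test, where 1.25% of all genes were called and 0.843% were called higher. This call was lost in 9 of the 24 fits that left out 1 library each: without M2, M3, F1, F2 or F3 of the Cre control and without M2, M3, F2 or F3 of cKO+NDI1, with adjusted p up to 0.141. It was also lost with the replicate number as a block (adjusted p 0.0666), without the filter on low counts (0.110), with the library total as covariate (0.0736), with only the groups compared (0.0540), in males alone (0.0904) and in females alone (0.590). The other 6 tested members had log2 fold changes of 0.14 to 0.45, and the nearest to the threshold was mt-Nd1, at 0.45 ± 0.13 with an adjusted p of 0.0736 by edgeR and 0.0262 by DESeq2. mt-Nd1 was called in 4 of 15 other settings and in 1 of 24 fits that left out 1 library. Both comparisons use the same Cre control mice.

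In cKO+NDI1 against cKO, which asks what NDI1 changed in knockout mice, no member passed the test, with 0.209% of all genes called. mt-Co1 averaged 6336 ± 1544 CPM in cKO+NDI1 and 7197 ± 1504 CPM in cKO (SD, n = 6 each). Its log2 fold change was -0.18 ± 0.17 with a 95% interval of -0.52 to 0.17, adjusted p 0.836 by edgeR's quasi-likelihood test. The 7 members lay between -0.18 and 0.13, median -0.04, and the median of all genes was -0.01.

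NDI1 alone, in the NDI1 control against the Cre control, called no member and 0.00654% of all genes. mt-Co1 had 4653, 4125 and 4577 CPM in male and 3830, 7407 and 5621 CPM in female NDI1 controls, against 3965, 3661 and 3900 CPM in male and 4830, 2873 and 4178 CPM in female Cre controls. F2 and F3 of the NDI1 control lay above the Cre control range and the other 4 libraries inside it. The log2 fold change was 0.36 ± 0.17, adjusted p 0.529, and that of mt-Nd1 was 0.37 ± 0.13, adjusted p 0.375, both by edgeR's quasi-likelihood test. The 7 members lay between 0.08 and 0.37.

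Where both groups carried NDI1, in cKO+NDI1 against the NDI1 control, edgeR's quasi-likelihood test called 0 of 15300 genes, and 4.48% had an unadjusted p under 0.05. DESeq2 called 23 genes, limma 0 and edgeR without the filter on low counts 2, none of them a member. mt-Co1 averaged 6336 ± 1544 CPM in cKO+NDI1 and 5036 ± 1312 CPM in the NDI1 control, with a log2 fold change of 0.34 ± 0.17 and an adjusted p of 0.998 by edgeR's quasi-likelihood test. The difference between the knockout effects with and without NDI1 was -0.54 ± 0.24 for mt-Co1, adjusted p 0.940, in a test that called 0 of 15300 genes and had 792 genes at an unadjusted p under 0.05, where DESeq2 called 7 genes and limma 0. A smaller response of mt-Co1 to the knockout in the presence of NDI1 was therefore not shown. The 7 members lay between -0.54 and -0.05 in this contrast.

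**Figure D4:**
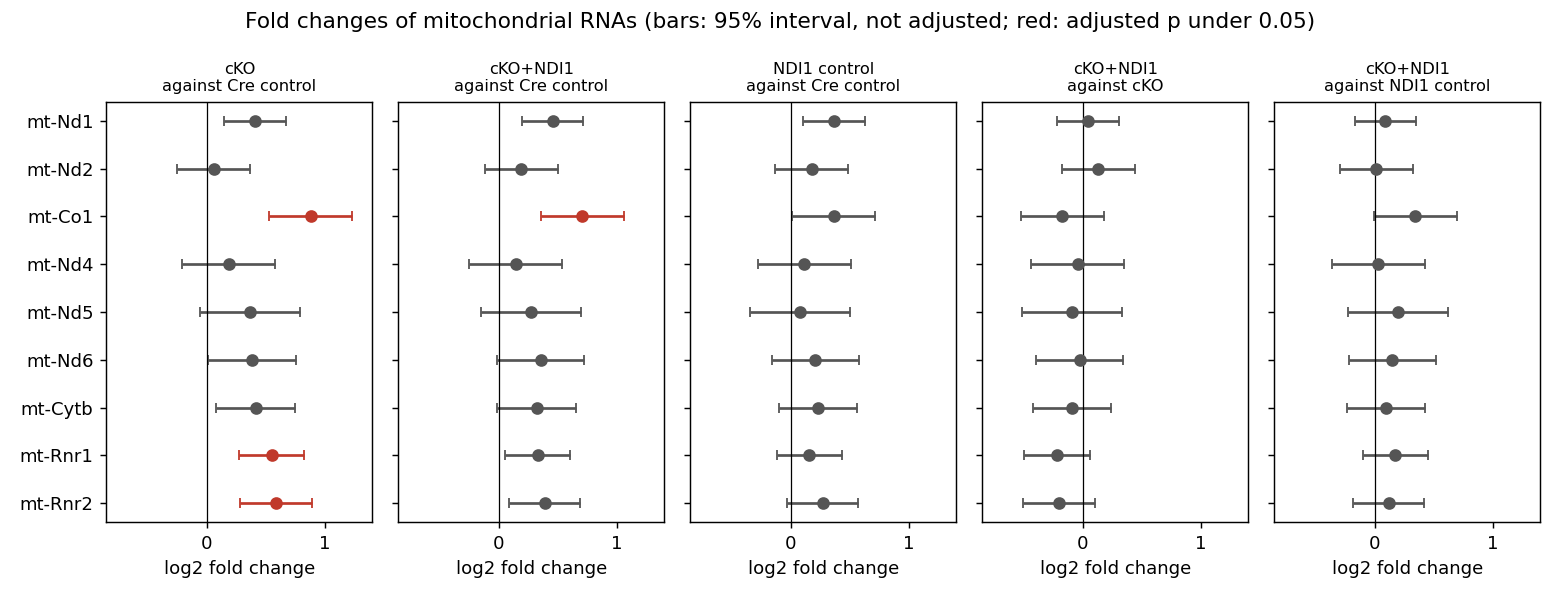
Log2 fold change of the 7 counted members and of both mitochondrial rRNAs in 5 comparisons, with 95% intervals that are not adjusted for the number of genes, and red where the adjusted p was under 0.05. mt-Co1 is red against the Cre control in cKO (0.88) and in cKO+NDI1 (0.70), and the rRNAs are red in cKO against the Cre control only, a difference between comparisons that was not tested.

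The mitochondrial rRNAs, which are cut from the same strand ahead of mt-Nd1, also rose in cKO against the Cre control. mt-Rnr1, the small-subunit rRNA, averaged 3198 ± 769 CPM in cKO and 2198 ± 351 CPM in the Cre control, log2 fold change 0.55 ± 0.13 with an adjusted p of 0.0174 by edgeR's quasi-likelihood test. mt-Rnr2, the large-subunit rRNA, averaged 7070 ± 1687 CPM in cKO and 4769 ± 951 CPM in the Cre control, log2 fold change 0.59 ± 0.15 with an adjusted p of 0.0202. Their calls held in 10 and 9 of 15 other settings. Both were lost without Cre control F2 (adjusted p 0.0540 for mt-Rnr1 and 0.0609 for mt-Rnr2), with the library total as covariate (0.105 and 0.0941), with only the groups compared (0.0924 and 0.0922) and in males alone (0.628 and 0.546). They were also lost with the level of the nuclear RNAs Malat1 and Meg3 as covariate (0.0575 and 0.0528) and without cKO F1 and NDI1 control F2 together (0.0519 and 0.0526), and that of mt-Rnr2 without the filter on low counts (0.0597). rRNA is measured here through the poly(A) selection, so these values do not give its full amount. Within groups the rRNAs did not follow the mRNAs: the 14 correlations of a member with an rRNA ran from 0.019 to 0.374, against 0.906 or more between members.

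**Figure D5:**
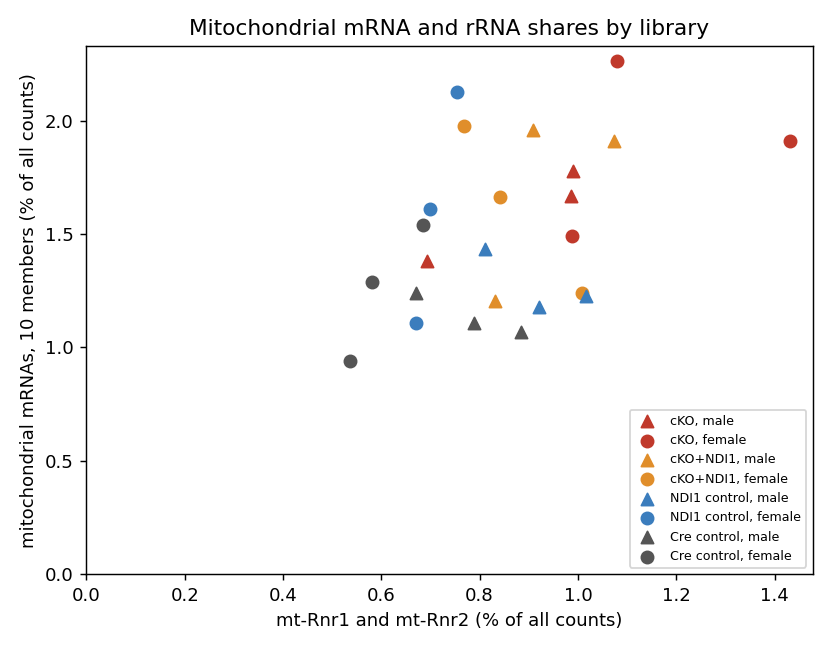
Share of all counts taken by the 10 members (vertical axis, %) against that taken by both mitochondrial rRNAs (horizontal axis, %), 1 point per library, by group and sex. The members ran from 0.938 to 2.26%, and libraries with a like member share differ widely in rRNA share.

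By sex, mt-Rnr1 and mt-Rnr2 differed between cKO and the Cre control more in females than in males, a difference that did not pass the test. For mt-Rnr1 the female cKO mice had 3661, 3100 and 4398 CPM, against 2215, 1759 and 1922 CPM in female Cre controls. The male cKO mice had 3011, 2899 and 2118 CPM, against 2370, 2759 and 2162 CPM in male Cre controls. The difference of the knockout effect, males minus females, was -0.78 ± 0.20 for mt-Rnr1 and -0.78 ± 0.23 for mt-Rnr2, both with an adjusted p of 0.210, in a contrast in which edgeR's quasi-likelihood test called 0 of 15300 genes and 20.6% had an unadjusted p under 0.05, and DESeq2 called 9 genes and limma 0. For mt-Co1 it was -0.22 ± 0.34, adjusted p 0.709, and the 7 members lay between -0.22 and 0.05. In fits to each sex alone, mt-Co1 had a log2 fold change of 0.76 in males and 0.98 in females, with adjusted p of 0.0711 and 0.0746 from 3 mice per group. Over all groups, males against females, no member was called, the 7 log2 fold changes ran from -0.28 to -0.11, and 0.085% of all genes were called.

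The nuclear partners of the members were read against the 4.87% of all genes called in cKO against the Cre control. Of the nuclear complex IV subunits, 12 were tested in cKO against the Cre control, 0 were called, and their median log2 fold change was -0.07, beside -0.01 for all genes. Of 36 nuclear complex I subunits 1 was called, Ndufs1, which holds iron-sulfur clusters of the NADH arm: it averaged 212 ± 10.5 CPM in cKO and 239 ± 9.93 CPM in the Cre control, log2 fold change -0.17 ± 0.05, adjusted p 0.0272 (1.81% of all genes were called lower). The median of that list was -0.11, with 3 of 36 positive, where 48.1% of all genes were positive. Complex III (9 tested) and ATP synthase (16 tested) had 0 called and medians of -0.11 and -0.14. In cKO+NDI1 against cKO 0 of 36 complex I subunits were called, and 36 of 36 had a positive log2 fold change, median 0.13, where 47.6% of all genes did. The same held for 36 of 36 in males against females (median 0.19) and for 34 of 36 in the NDI1 control against the Cre control (median 0.12), with 0 called in either. The knockout effect in males minus females had medians of -0.52 for complex I (1 of 36 positive) and -0.68 for complex IV (0 of 12). Those of complex III and ATP synthase were -0.42 (0 of 9) and -0.50 (1 of 16), beside -0.01 for all genes. In that contrast 0 of 15300 genes were called. The log2 fold changes of all genes ran from -0.70 at the 5th percentile to 0.71 at the 95th, so these medians lie inside that spread. Genes of a list share their libraries, so the counts of positive genes are not independent.

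The machinery that copies, transcribes and processes the mitochondrial genome was read against the same 4.87%. Of the replication and maintenance list 0 of 16 genes were called in cKO against the Cre control, of the transcription list 0 of 11, of the translation factors 0 of 15 and of the biogenesis regulators 0 of 13, with medians of -0.05, -0.13, -0.09 and 0.05. Of 28 genes of RNA processing, stability and decay 1 was called: Nsun4, an rRNA methyltransferase that helps assemble the mitochondrial ribosome, averaged 11.1 ± 1.21 CPM in cKO and 13.6 ± 0.477 CPM in the Cre control, log2 fold change -0.29 ± 0.08, adjusted p 0.0320. Lrpprc, which binds and stabilises most mitochondrial mRNAs, averaged 49.3 ± 7.40 CPM in cKO and 62.0 ± 11.01 CPM in the Cre control, log2 fold change -0.32 ± 0.14, adjusted p 0.210. Polrmt, the mitochondrial RNA polymerase, had a log2 fold change of 0.20 ± 0.07, adjusted p 0.112, and Tfam, which packs mitochondrial DNA and starts transcription, one of -0.07 ± 0.07. Polg, the catalytic subunit of the mitochondrial DNA polymerase, rose in cKO+NDI1, to 56.7 ± 2.70 CPM against 46.5 ± 4.34 CPM in the Cre control, log2 fold change 0.29 ± 0.06 and adjusted p 0.0287 by edgeR's quasi-likelihood test. In cKO it averaged 53.9 ± 4.48 CPM, log2 fold change 0.21 ± 0.06, adjusted p 0.0560. In the NDI1 control against the Cre control its log2 fold change was 0.22 ± 0.06, adjusted p 0.254 by the same test.

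The genes outside chromosome M whose levels moved most like the members from mouse to mouse were Ccnt2, Meg3, Rbm33, Malat1 and Usp48, with correlations of 0.919, 0.911, 0.893, 0.887 and 0.877 over 24 libraries among 15287 genes, after the means of group and sex were removed. Meg3 and Malat1 are long noncoding RNAs held in the nucleus. Meg3 averaged 297 ± 88.2 CPM in cKO and 176 ± 34.0 CPM in the Cre control, log2 fold change 0.75 ± 0.23, adjusted p 0.0610, and Malat1 averaged 234 ± 47.2 CPM in cKO and 193 ± 64.5 CPM in the Cre control. With the level of both as a covariate, an analysis added after seeing the data, mt-Co1 had log2 fold changes of 0.50 in cKO and 0.43 in cKO+NDI1. Each was against the Cre control, with adjusted p of 0.00228 and 0.00906 by edgeR's quasi-likelihood test. Both RNAs were picked for their correlation with the members, so the covariate takes out part of the members' own spread by construction. These p are therefore no independent support for a change of mt-Co1. In the same fit mt-Nd2, mt-Nd4, mt-Nd5 and mt-Nd6 turned negative in cKO against the Cre control, at -0.26, -0.23, -0.09 and -0.01, and none of these passed the test.

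Several features of the libraries moved with the groups. The mean total was 11619900 counts in cKO and 15939000 in the Cre control. mt-Co1 stayed called in cKO against the Cre control when all libraries were thinned to the smallest total. As it had at least 42894 counts in every library, thinning could change little for it. With the library total as covariate its adjusted p was 0.0405 by edgeR's quasi-likelihood test. The part of features that go with the totals was not tested. The 8 Purkinje cell markers summed to 10829 to 11734 CPM in cKO and 12061 to 12652 CPM in the Cre control. A sum follows its most abundant genes. Singly, 0 of these 8 markers were called and 2 were positive, with a median log2 fold change of -0.05 (range -0.25 to 0.06). The 8 oligodendrocyte markers summed to 9341 to 11309 CPM in cKO+NDI1 and 9903 to 12379 CPM in the NDI1 control. Without NDI1 they summed to 11763 to 18474 CPM in cKO and 12394 to 14441 CPM in the Cre control. In cKO+NDI1 against cKO 4 of these 8 markers were called lower and 0 of 8 were positive, where 0.209% of all genes were called. Granule neuron, astrocyte, oligodendrocyte, microglia, endothelial, choroid plexus and red blood cell sums overlapped between cKO and the Cre control. Of the marker genes, Grin2c of granule neurons, Mal of oligodendrocytes and Pecam1 of endothelial cells were called higher in cKO than in the Cre control and Slc1a3 of astrocytes lower. The largest of these was Pecam1, at 46.9 ± 5.32 CPM in cKO and 27.8 ± 2.07 CPM in the Cre control. The part of cell composition in the members' levels was not tested. Markers of skeletal muscle and brown fat, mitochondria-rich tissues, summed to 15.1 CPM at most in any library, with Myh4 at a median of 0. The labels do not name the knocked-out gene. Ndufs4, the complex I subunit deleted in the mice this model is known for, averaged 95.4 ± 21.5 CPM in cKO, 101 ± 15.1 in cKO+NDI1, 144 ± 41.8 in the NDI1 control and 134 ± 23.6 in the Cre control, and its change in cKO against the Cre control had an adjusted p of 0.0939, so gene-level counts do not check the labels on this point. Gt(ROSA)26Sor, the usual site for such transgenes, was at 7.04 ± 1.35 CPM in cKO+NDI1 and 34.8 ± 8.14 CPM in cKO, and at 7.01 ± 0.879 CPM in the NDI1 control and 35.7 ± 7.53 CPM in the Cre control.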

How the data were processed

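The deposited values are raw counts per gene and library, for 24 libraries of poly(A)-selected RNA made with a kit that does not mark strand, per the labels' protocols. The authors' counts came from bcl2fastq, Trimmomatic, STAR and HTSeq on mm10, per the submitters' processing notes; versions, strand setting and the treatment of reads with several matches are not given in the sources used here. Ensembl IDs were given symbols from GENCODE M21 (42462 of 43430). The 15300 genes that passed edgeR's filterByExpr by group were scaled by TMM and fitted with edgeR 4.0.16 (quasi-likelihood, robust; R 4.3.3) on group and sex over all 24 libraries. The Benjamini-Hochberg adjustment ran over every tested gene, and a call needed an adjusted p-value under 0.05. Levels are CPM on TMM-scaled library sizes, shares are of deposited counts, and errors are SD or, for fold changes, SE. Shared stretches of 30, 50 and 100 bases were found by exact match of GENCODE M21 transcripts. Alternatives were limma 3.58.1, DESeq2 1.42.0, other scalings, filters, depths, subsets of samples, a replicate block and each library left out. The code was tested on simulated data. The labels give no meaning to the numbers 1 to 3 within a sex, so the main fit did not use them. Of 36 same-numbered pairs of libraries, 19 had residual correlations over 0.1 (median 0.110, range -0.402 to 0.506). Whether same-numbered mice were handled together was not tested. The members, the gene lists and the tests were chosen with earlier results of these data known. Genes were named by rule: the members, the rRNAs, up to 4 called genes of each list and the 5 genes most like the members. Lrpprc, Polrmt and Tfam are named as the core of their lists, and Polg in cKO and the NDI1 control beside its call. mt-tRNAs, of which 19 of 22 had at most 4 counts in any library, are not described.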

Additional observations from a re-analysis of the deposited data

Results flagged for a closer look

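Of 68 sets of 6 libraries tested for a value far from the others, 1 was singled out, and chance alone gives about 1 in 20. In cKO, mt-Nd4 took 5.48% of the member counts in female F1, whereas the nearest of the other 5 libraries had 5.28%. All 6 cKO values lie below the lowest Cre control value of 5.77%.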

How the results depend on the processing

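mt-Co1 in cKO against the Cre control kept its direction in 15 of 15 other settings (log2 fold change 0.50 to 0.98) and its call in 13, lost in each sex alone, and was called in 24 of 24 fits that left out 1 library. The number of members called there, 1, was 2 with library size alone and with DESeq2, 3 with 1 surrogate variable, 0 in males alone and in females alone, and 1 to 2 with 1 library left out; mt-Nd1 joined mt-Co1 without Cre control F1, NDI1 control F2 or cKO M3. In cKO+NDI1 against the Cre control the number, 1, was 2 with library size alone, with DESeq2, with 1 surrogate variable and with Malat1 and Meg3 as covariate, 0 without the filter on low counts, with library total as covariate, with only the groups compared, in males alone, in females alone and with the replicate block (mt-Co1 0.69, adjusted p 0.0666), and 0 to 2 with 1 library left out. The replicate block left the other 6 numbers of called members it could give as they were; males against females could not be fitted with it. The cause was not tested; fits to 1 sex or to fewer groups hold fewer samples. For mt-Rnr1 and mt-Rnr2 in cKO against the Cre control the direction held in 15 of 15 other settings (0.13 to 0.91 and 0.17 to 0.95) and the call in 10 and 9 of them. The settings with 1 surrogate variable, with Malat1 and Meg3, and without cKO F1 and NDI1 control F2 together were added after seeing the data. The covariate and the libraries left out in them were chosen from the members' own levels, so these fits are no independent support. The share of all counts became 2.78% in cKO, 2.57% in cKO+NDI1, 2.26% in the NDI1 control and 1.89% in the Cre control when every chromosome M gene was summed.

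Of the values printed for single members, those that changed sign were never called in that comparison. Malat1 and Meg3 as covariate gave, in cKO against the Cre control, -0.26 for mt-Nd2, -0.23 for mt-Nd4, -0.090 for mt-Nd5 and -0.010 for mt-Nd6, in cKO+NDI1 against the Cre control -0.031 for mt-Nd2, -0.15 for mt-Nd4 and -0.052 for mt-Nd5, in the NDI1 control against the Cre control -0.028 for mt-Nd5, and 0.14 for mt-Co1 in males against females. Adding 1 surrogate variable gave 0.012 for mt-Co1 in males against females. Males alone gave 0.032 for mt-Co1 in cKO+NDI1 against cKO and -0.062 for mt-Nd5 in the NDI1 control against the Cre control, and females alone -0.020 for mt-Nd4 in cKO+NDI1 against the Cre control. Without cKO F1 and NDI1 control F2 together, the NDI1 control against the Cre control gave -0.043 for mt-Nd4 and -0.084 for mt-Nd5. With 1 library left out, mt-Nd2 in cKO against the Cre control ran from -0.018 to 0.14, and in the NDI1 control against the Cre control mt-Nd4 ran from -0.037 to 0.21 and mt-Nd5 from -0.077 to 0.17. In the 5 comparisons in which only mt-Co1 and a range are given, uncalled values changed sign in 13 of 105 values (7 members by setting) and 12 of 168 with 1 library left out for cKO+NDI1 against cKO, 13 of 105 and 12 of 168 for cKO+NDI1 against the NDI1 control, 10 of 98 and 6 of 168 for the difference between knockout effects with and without NDI1, 9 of 77 and 0 of 168 for males against females and 14 of 84 and 32 of 168 for the knockout effect by sex, so no direction is given for them.

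The 7 counted members had over 4000 counts in every library. For mt-Co2, mt-Co3 and mt-Atp6 the counts allow no statement.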
